A study of Homo sapiens with 15 samples.

Results

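The type I interferon response genes described here are 50 genes taken by name: the interferon-beta gene and its receptor chains, transcription factors of the pathway, and genes that interferon induces. Every probe whose accession carries one of these symbols was used. Of the 50 genes, 49 had such a probe, 62 of the 50599 probes on the array. After a filter on faint signals 38 genes with 46 probes were left, among 22685 probes tested. IFI27 had no probe named through its accession, and 11 genes were too faint to test. The array named 20503 genes in all.

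Type I interferons are secreted proteins made by cells that sense a virus or a bacterial product. They bind a receptor made of IFNAR1 and IFNAR2, whose kinases JAK1 and TYK2 phosphorylate STAT2. STAT2 and IRF9 take part in a complex that binds a DNA element, the interferon-stimulated response element, and switches on antiviral genes. TLR4, the receptor for lipopolysaccharide (LPS), can lead to transcription of IFNB1 through the adaptors TICAM2 and TICAM1 and the factor IRF3.

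SCC13 is an established line of cutaneous squamous cell carcinoma. It was stably transfected with a TLR4-GFP fusion in the plasmid pUNO (SCC13-TLR4) or with pUNO as control (SCC13-pUNO), grown under blasticidin, and the TLR4 cells were sorted for a high GFP signal. Cultures of each line were left untreated or given ultrapure LPS (10 μg/ml, 24 h), with 4 arrays per group except the untreated SCC13-TLR4 cells, which had 3. All cultures of a line came from 1 transfected population, so p-values do not measure the spread between transfections. They measure the spread between arrays of a group. Where slide and set are not in the model, this holds the spread between slides and sets as well as that between cultures. In bulk RNA, fewer cells with a transcript and less transcript per cell cannot be told apart.

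Levels are log2 intensities from which the 75th percentile of the array was subtracted, so a level of 0 equals that percentile. Levels of different genes come from different probes and are not set against each other. The arrays lay on 2 slides (8 on slide 1 and 7 on slide 2), and on each slide in 2 sets of up to 4 positions. The share of spots well above background was 47.1% to 56.2% per array. TLR4 itself read 2.84 to 3.19 on the 7 SCC13-TLR4 arrays. In untreated SCC13-pUNO cells it read -3.80, -6.40 and -5.72 on replicates 1, 3 and 4 and 3.04 on replicate 2, and with LPS -6.19, -6.26, -6.09 and -4.74. The array labelled as replicate 2 of untreated SCC13-pUNO was therefore at the level of the other line. It also lay at position 1 of its set, as did all 3 untreated SCC13-TLR4 arrays, while the other 3 untreated SCC13-pUNO arrays lay at position 3. It was kept under its label. The counts of calls, the differences of members singled out between the untreated lines, the shares of variance and the comparison of the sets are also given without it. The keratinocyte markers KRT5, KRT14, KRT17, TP63 and PERP were well above background on all 15 arrays and KRT6A on 7. Of the fibroblast markers COL1A1 was above background on 6 arrays and the other 4 on 0. Of the leukocyte markers, PTPRC, CD68 and CD14 were above background on all 15 arrays and CD3E on 8, and of the plasmacytoid dendritic cell markers LILRA4 on 1 and CLEC4C on 0. The endothelial markers CDH5, VWF and PECAM1 were above background on 15, 14 and 10 arrays, and the melanocyte markers PMEL, TYR and MLANA on 15, 4 and 2.

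Sequence upstream of 5 members is shown because 4 of them hold the core of the response element and the fifth, IRF9, moved with them without it. RefSeq promoters (GRCh38.p14, 250 bases before to 50 bases after the annotated start) were found for 38 of the 50 genes and were searched on both strands for GAAANNGAAA, overlapping matches included. Of these 38 genes 25 (65.8%) had a match, against 1195 of 27305 genes (4.38%) in the whole table. The lines give the 200 bases before the start, on the strand of the gene, with matches in capitals.
IFIT1, chr10:89392423-89392622, + strand: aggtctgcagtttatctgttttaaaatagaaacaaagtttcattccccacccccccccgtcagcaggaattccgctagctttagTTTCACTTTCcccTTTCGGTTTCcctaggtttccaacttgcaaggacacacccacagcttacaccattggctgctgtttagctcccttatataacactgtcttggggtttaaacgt
ISG15, chr1:1013297-1013496, + strand: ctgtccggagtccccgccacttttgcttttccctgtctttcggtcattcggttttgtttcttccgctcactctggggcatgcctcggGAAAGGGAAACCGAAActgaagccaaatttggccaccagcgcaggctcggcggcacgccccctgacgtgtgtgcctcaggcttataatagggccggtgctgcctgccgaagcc
IFI44L, chr1:78620248-78620447, + strand: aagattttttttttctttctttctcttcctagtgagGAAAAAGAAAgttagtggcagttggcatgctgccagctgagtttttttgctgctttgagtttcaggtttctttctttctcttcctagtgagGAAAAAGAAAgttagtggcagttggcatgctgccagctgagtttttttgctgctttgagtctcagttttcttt
RSAD2, chr2:6877577-6877776, + strand: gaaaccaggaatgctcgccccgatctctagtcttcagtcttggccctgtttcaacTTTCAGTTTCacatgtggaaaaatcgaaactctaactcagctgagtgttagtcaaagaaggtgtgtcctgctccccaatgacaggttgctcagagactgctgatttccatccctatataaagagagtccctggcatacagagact
IRF9, chr14:24161065-24161264, + strand: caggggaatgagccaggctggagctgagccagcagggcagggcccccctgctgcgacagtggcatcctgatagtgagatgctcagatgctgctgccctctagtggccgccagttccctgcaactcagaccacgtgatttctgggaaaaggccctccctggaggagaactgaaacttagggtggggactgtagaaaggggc
The matches lay on the reverse strand in IFIT1 and RSAD2 and on the gene's strand in ISG15 and IFI44L. A second annotated start of RSAD2 had none. By role, all 3 IFIT genes and all 6 small membrane and mitochondrial proteins in the table had a match. IFNB1 and IFNAR1 (0 of 2) and the transcription factors IRF1, IRF9 and STAT2 (0 of 3) had none. A match describes letters and not binding.

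The interferon gene and the chemokine targets were at or near background. IFNB1, which encodes interferon-beta, was well above background on 0 of 15 arrays. Its readings were -6.24, -6.12, -6.40 and -6.46 in untreated SCC13-pUNO cells and -6.50, -6.42 and -6.16 in untreated SCC13-TLR4 cells. With LPS they were -5.90, -6.44, -5.85 and -6.28 in SCC13-pUNO cells and -5.02, -6.04, -5.36 and -6.74 in SCC13-TLR4 cells. All of these lie in the background, so they carry no order. CXCL10, a chemokine that draws T cells, was above background on 1 of 15 arrays, of LPS-treated SCC13-pUNO cells, and the related CXCL11 on 0. GBP1, SAMD9 and SAMD9L were above background on 0 arrays, TRIM22 and EPSTI1 on 1, GBP2 on 2, XAF1 on 3 and HERC6 on 5. Of the other interferon genes, IFNA2, IFNG and IFNL3 were above background on 0 arrays, IFNK on 1, IFNL1 on 2, IFNE on 10 and IFNL2 on 15. Changes below the background cannot be seen in these data.

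The receptor chains IFNAR1 and IFNAR2 and the factors STAT2 and IRF9 were well above background on all 15 arrays, and IRF2 on 14. An outlier spot was left out for IRF3 on 1 array of LPS-treated SCC13-TLR4 and for IRF7 on 1 array of untreated SCC13-TLR4. IFNAR1 read -2.20, -2.18, -2.06 and -1.69 in untreated SCC13-pUNO cells, -2.27, -2.05 and -1.77 in untreated SCC13-TLR4 cells, and with LPS -2.27, -2.18, -1.26 and -1.52 against -2.23, -2.28, -1.79 and -1.63. The 4 groups overlapped. STAT2, the interferon-specific STAT, read 3.87, 3.91, 4.11 and 3.77 against 3.97, 3.77 and 3.75 without LPS, and 4.01, 4.05, 3.91 and 3.94 against 4.03, 4.04, 3.78 and 3.57 with it. These groups overlapped as well. IFNAR2 differed by 0.06 ± 0.12 (SE) between the untreated lines on its brightest probe. On its other probes it differed by 0.41 ± 0.29 and 0.37 ± 0.32, the last of them well above background on 11 arrays.

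The first question was whether the members differed between the lines and whether LPS changed them. In limma with 1 mean per group, 0 of 38 members passed an adjusted p of 0.05 in the comparison of the lines without LPS, with LPS, in either response to LPS or in the difference of the responses, as did 0 of 22685 probes (0.0% called). At an unadjusted p under 0.05 the counts of all probes were 566, 617, 562, 301 and 299 in that order. Without the array labelled as replicate 2 of untreated SCC13-pUNO, 7 and 10 probes were called between the lines without and with LPS, and 0 members. TLR4 itself was not called with that array (limma, adjusted p = 0.999 and 0.312) and was called without it (1.4e-05 and 1e-06). The median log2 difference of the members was 0.03 between the untreated lines (all probes -0.02), -0.01 between the lines with LPS (-0.01), -0.01 for LPS in SCC13-pUNO cells (-0.01) and -0.03 for LPS in SCC13-TLR4 cells (-0.01). The median standard error of a member was 0.21 to 0.22 in these 4 comparisons. These errors include the spread between slides and sets, so smaller differences could be missed and 0 calls do not show that the groups are alike.

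LPS gave 0 members an unadjusted p under 0.05 in either line. Over all probes 2.05% were higher and 0.432% lower with LPS in SCC13-pUNO cells, and 0.948% and 0.379% in SCC13-TLR4 cells. ISG15, a ubiquitin-like protein joined to other proteins, read 5.85, 5.17, 5.38 and 4.69 without and 5.58, 5.12, 5.13 and 4.87 with LPS in SCC13-pUNO cells. In SCC13-TLR4 cells it read 5.58, 4.95 and 4.87 without and 5.76, 5.38, 4.96 and 4.75 with LPS. The readings overlapped in both lines, and the log2 differences with LPS were -0.10 ± 0.27 and 0.08 ± 0.30. For IFIT1, which binds viral RNA, they were 0.06 ± 0.39 and -0.21 ± 0.42, and for IRF9 0.01 ± 0.30 and -0.00 ± 0.33. Each of these was smaller than its error. No member had groups without overlap, where 0.965% of all probes were higher and 0.309% lower without overlap in SCC13-pUNO cells and 1.05% and 0.736% in SCC13-TLR4 cells. In the difference of the responses 0 members reached an unadjusted p under 0.05 (all probes 0.401% higher and 0.917% lower).

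Between the untreated lines 2 of 38 members (5.26%) were higher in SCC13-TLR4 cells at an unadjusted p under 0.05 and 0 were lower, against 1.62% and 0.877% of all probes. MX2, an antiviral GTPase at the nuclear pore, read -3.31, -3.65, -3.96 and -3.44 in SCC13-pUNO cells and -2.49, -2.98 and -2.55 in SCC13-TLR4 cells. The groups did not overlap, and the log2 difference was 0.92 ± 0.36 (limma, adjusted p = 0.999). MX2 was well above background on 12 of 15 arrays. It was so throughout a group only on the 3 arrays of untreated SCC13-TLR4 cells. It thus passed the filter on faint signals only through the group where it was higher. Its difference, its lack of overlap and its place among the 2 members are therefore no support for a difference between the lines. OAS1, which makes the oligoadenylates that activate RNase L, read -3.23, -3.36, -3.14 and -2.49 against -2.41, -2.29 and -2.04. These groups did not overlap either, with a difference of 0.81 ± 0.35 (limma, adjusted p = 0.999). OAS1 also read higher on slide 2 than in set 2 of slide 1. Slide 2 holds more of the untreated SCC13-TLR4 arrays than of the untreated SCC13-pUNO arrays. With slide or set as a factor OAS1 was not under an unadjusted p of 0.05. Without the array labelled as replicate 2 of untreated SCC13-pUNO, OAS1 differed by 0.71 and only MX2 (0.90) was left under an unadjusted p of 0.05, as were 1.62% of all probes. That array read -3.65 in MX2 and -3.36 in OAS1. Were it counted with the SCC13-TLR4 cells, whose level of TLR4 it had, the groups would overlap in both genes. The lack of overlap thus depends on its label.

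SP110, a nuclear body protein, was the other member without overlap, at -1.67, -1.66, -1.68 and -1.71 against -1.18, -1.65 and -1.44, a difference of 0.26 ± 0.14. The 3 members compare with 2.15% of all probes higher without overlap, and 0 members with 1.58% lower. MX2 counts among the 3 although it passed the filter only through the group where it was higher. SP110 differed by 0.26 as well without the array labelled as replicate 2 of untreated SCC13-pUNO. These counts read each gene from its brightest probe. Other probes differed, with a second probe of OAS2 higher by 0.92 ± 0.33 in untreated SCC13-TLR4 cells and lower with LPS in that line (-0.75 ± 0.33), and a second probe of IFITM1 higher by 0.48 ± 0.18 in untreated SCC13-TLR4 cells. The brightest probes of OAS2 gave 0.28 and -0.22, and that of IFITM1 0.17.

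With LPS, 0 members differed between the lines at an unadjusted p under 0.05 (all probes 1.27% higher, 1.45% lower) or without overlap (0.56% and 0.727%). MX2 read -2.82, -3.59, -2.72 and -4.12 in SCC13-pUNO cells and -2.90, -4.24, -3.02 and -3.22 in SCC13-TLR4 cells, a difference of -0.03 ± 0.33. OAS1 read -3.52, -3.10, -2.90 and -2.01 against -2.87, -3.58, -2.78 and -2.24, a difference of 0.02 ± 0.32. Both overlapped widely. In this comparison arrays of the same replicate number lay in the same set. With the replicate number as a block 3 members were higher and 0 lower at an unadjusted p under 0.05 (all probes 2.1% and 2.5%), namely IFITM3 (0.28 ± 0.11), BST2 (0.22 ± 0.10) and MX1 (0.85 ± 0.33), and 0 passed adjustment (limma, adjusted p = 0.999 for each). The response of MX2 to LPS differed between the lines by -0.95 ± 0.49 and that of OAS1 by -0.79 ± 0.47, neither called (limma, adjusted p = 1.00).

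The slides hold unequal shares of the groups, with 3 of 4 untreated SCC13-pUNO arrays but 1 of 3 untreated SCC13-TLR4 arrays on slide 1 by their labels. The array labelled as replicate 2 of untreated SCC13-pUNO is 1 of these 3, and the values within slide 1 include it. Within slide 1 and slide 2 the untreated lines differed by 1.16 and 0.67 in MX2 and by 0.84 and 0.32 in OAS1. The untreated SCC13-TLR4 array on slide 1 lies in set 1, and replicates 2 and 3 of untreated SCC13-pUNO lie in set 2. The values within slide 1 and with slide as a factor thus mix line and set. Within set 1 MX2 read -3.31 in SCC13-pUNO and -2.49 in SCC13-TLR4 cells, and OAS1 -3.23 and -2.41, with 1 array per line. With slide as a factor, 11 members were higher and 1 lower in untreated SCC13-TLR4 cells at an unadjusted p under 0.05, against 2.98% and 2.57% of all probes, and 0 passed adjustment. The median difference of the members was then 0.20 (all probes 0.03). The 11 included MX1, MX2, RSAD2, IFI44L and the IFITM proteins, which block viral entry. With the set as a factor, which was added after the data were seen, 5 were higher and 1 lower (all probes 3.57% and 1.91%). Without the array labelled as replicate 2 of untreated SCC13-pUNO the slide factor gave 8 higher and 1 lower (3.76% and 1.99%), with MX1 and the IFITM proteins but not MX2, RSAD2 or IFI44L among the 8, and the set gave 12 and 1 (4.47% and 1.87%). With LPS and slide as a factor, the same 3 members as with the replicate block were higher and 0 lower (2.59% and 3.84%, and 2.68% and 3.76% without that array).

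MX1, the cytoplasmic antiviral GTPase, was higher in SCC13-TLR4 cells wherever a set held both lines, in 2 of 2 sets without LPS and in 4 of 4 sets with it. IFITM3 and BST2 were higher in the same sets, so this is not particular to MX1. No share of all probes is given for it, so the count of sets is a description and does not show a difference between the lines. Without LPS it read -1.33, -1.29, -2.11 and -1.99 in SCC13-pUNO cells and -0.29, -1.47 and -1.23 in SCC13-TLR4 cells. With LPS it read -0.98, -2.13, -1.98 and -1.89 against -0.39, 0.20, -1.73 and -1.67. The groups overlapped in both cases. The differences were 0.69 ± 0.47 and 0.85 ± 0.43, with two-sided exact permutation p = 0.229 and p = 0.171. With 1 array left out the difference with LPS was 0.48 to 1.12, lowest without replicate 2 of LPS-treated SCC13-TLR4. With slide as a factor they were 1.05 and 0.85, and neither passed adjustment. With no slide factor the difference in untreated cells was 0.82 without the array labelled as replicate 2 of untreated SCC13-pUNO.

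PLSCR1, a phospholipid scramblase, read -6.52 on replicate 1 of untreated SCC13-TLR4, where its spot was not well above background, and 0.48 to 1.44 on the other arrays. Its difference between the untreated lines was -2.40, and 0.04 without that array. Its response to LPS in SCC13-TLR4 cells was 2.46, and 0.03 without that array.

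**Figure D1:**
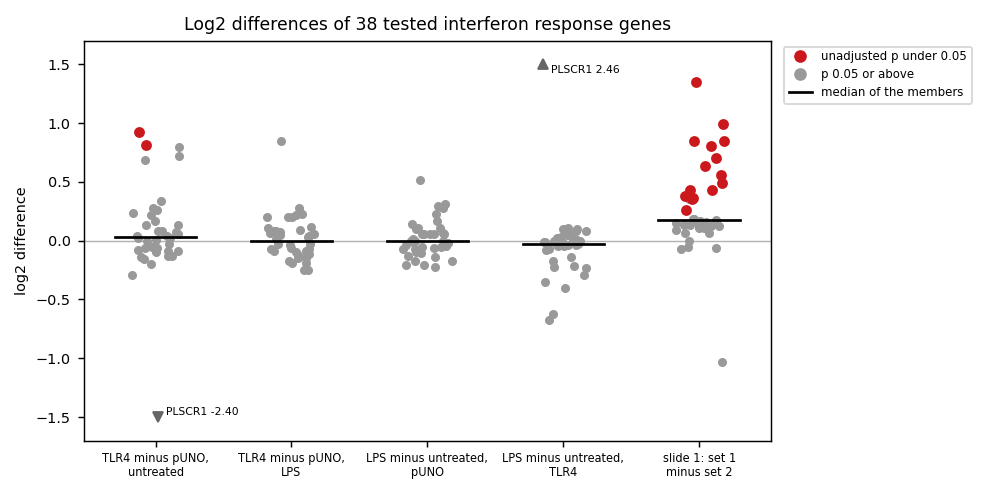
Log2 differences (vertical axis) of the 38 tested members in the 4 comparisons of groups and between the sets of slide 1. Each point is a gene, red at an unadjusted p under 0.05, the bar is the median of the members, and triangles mark PLSCR1, whose -2.40 and 2.46 lie beyond the axis. The medians of the group comparisons lie near 0, with 2 red points in the first comparison and 0 in the other 3, while 15 points are red between the sets.

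The members varied more between the slides and sets of the arrays than with line or LPS. The cause of this was not tested. Over the 35 members with a value on every array, group took a median of 12.1% of the variance over arrays, slide 46.9% and set 69.7%. Over 22380 such probes the medians were 12.9%, 35.4% and 51.3%. From their degrees of freedom alone group and set would each take 21.4% and slide 7.14%. The medians of the members were 14.3%, 45.9% and 69.5% without the array labelled as replicate 2 of untreated SCC13-pUNO. Set took more than group in 34 of 35 members. Over all probes the median share of set also exceeded that of group, so this order is not particular to the members. The share of set was highest in IFI44 (98.5%), a cytoplasmic protein induced by interferon, and was 92.6% in OASL, 91.0% in IFIT1 and 33.7% in MX1.

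Set 1 of slide 1 holds the 4 arrays labelled replicate 1, 1 of each group, so replicate number 1 and this set cannot be told apart. On these arrays the median deviation of the members from their own mean over 15 arrays was 0.17 in untreated SCC13-pUNO cells, 0.37 in untreated SCC13-TLR4 cells, 0.31 in SCC13-pUNO cells with LPS and 0.36 in SCC13-TLR4 cells with LPS. In set 2 of slide 1 it was -0.04 to 0.05, and on slide 2 it was -0.27 to -0.10. The medians of all tested probes spread less, at 0.03 to 0.10 in set 1 and -0.06 to 0.05 elsewhere. In 13 of 38 members (34.2%) replicate 1 was the highest array of all 4 groups, against 7.62% of all probes.

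**Figure D2:**
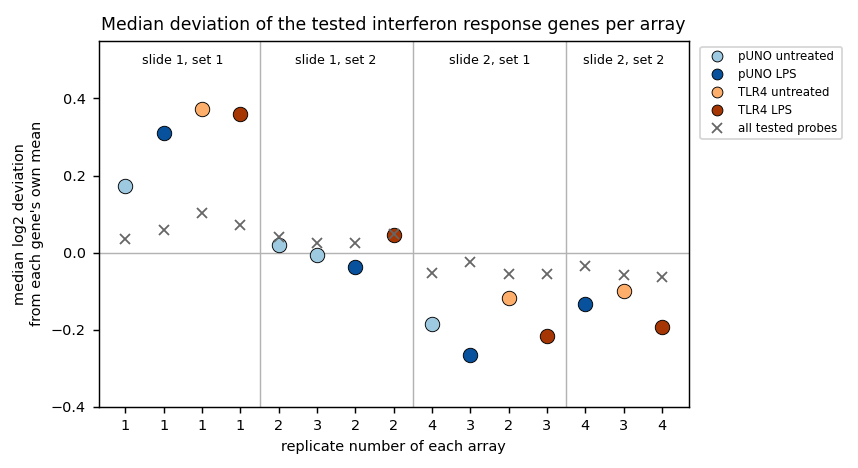
Median log2 deviation of the tested members from each gene's own mean over 15 arrays (coloured points, 1 per array, by group) and of all tested probes (crosses), with arrays ordered by slide and set and labelled by replicate number. The 4 arrays of the first set, at 0.17 to 0.37, lie above the other 11, the highest of which is at 0.05.

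Set 1 was compared with set 2 of slide 1 in limma with group and set in the model. This comparison was chosen after the values were seen and is a description. It sets 1 set against 1 other, so its p-values do not measure a spread between sets and do not support an effect of set. Of all probes 23 (0.101%) passed an adjusted p of 0.05, among them 3 members. At an unadjusted p under 0.05, 15 of 38 members (39.5%) were higher in set 1 and 0 lower, against 7.69% and 4.22% of all probes. The difference lay above 0 in 33 of 38 members (86.8%, all probes 56.0%), with a median of 0.17 (all probes 0.03). Without the array labelled as replicate 2 of untreated SCC13-pUNO, 18 members were higher (all probes 7.54%) and 0 were called (0.0309%). With normexp background correction 4 members were called (0.154%).

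The 3 members past adjustment were OASL, RSAD2 and IFI44. OASL, an oligoadenylate synthetase-like protein that acts with the RNA sensor RIG-I, read 1.69, 1.44, 2.05 and 1.66 in set 1, 0.71, 0.88, 0.80 and 0.66 in set 2, and 0.21 to 0.60 on slide 2. Set 1 lay above all other arrays, and the difference from set 2 was 0.99 ± 0.13 (limma, adjusted p = 0.041). RSAD2 (viperin), which makes a nucleotide that stops viral RNA synthesis, read -2.66, -1.74, -1.94 and -2.24 in set 1 and -3.67, -3.92, -3.84 and -3.18 in set 2. These did not overlap, and the difference was 1.35 ± 0.18 (limma, adjusted p = 0.041). IFI44 read 2.06, 2.10, 2.14 and 2.03 against 1.64, 1.64, 1.67 and 1.66, a difference of 0.43 ± 0.06 (limma, adjusted p = 0.040). With each array left out in turn, 0 to 3 members were called and 13 to 18 were higher at an unadjusted p under 0.05, with a median of 0.15 to 0.22. All 3 calls were kept without replicate 3 of LPS-treated SCC13-pUNO and lost without any one of the other 14 arrays. Without replicate 3 of untreated SCC13-pUNO another member, IFIT1, was called (0.95, limma, adjusted p = 0.045).

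The other members of the 15 followed their roles unevenly. Among the IFIT proteins, which bind RNA and the translation machinery, 3 of 4 were higher in set 1. IFIT1 read 2.85, 3.29, 3.36 and 3.05 in set 1 and 2.15, 2.54, 2.22 and 2.11 in set 2, a difference of 0.85 ± 0.13. Set 1 lay above all other arrays here too. IFIT3 differed by 0.64 ± 0.13, IFIT2 by 0.49 ± 0.09 and IFIT5 by 0.07 ± 0.09.

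Among 6 transcription factors 2 were higher, IRF9 and IRF7, which drives interferon-alpha genes. IRF9 read -0.04, 0.23, 0.24 and 0.12 in set 1 and -0.53, -0.74, -0.72 and -0.51 in set 2, a difference of 0.70 ± 0.11. The sets did not overlap. IRF7 differed by 0.26 ± 0.09, STAT2 by -0.07 ± 0.08, IFNAR1 by -0.00 ± 0.12 and IFNAR2 by -0.06 ± 0.09.

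Of the sensors and oligoadenylate synthetases 2 of 6 were higher, OASL and OAS2 (0.56 ± 0.12), although another probe of OAS2 read 0.06. OAS1 and OAS3 differed by 0.19 ± 0.19 and 0.06 ± 0.10. Of the ISG15 conjugation genes 2 of 3 were higher, ISG15 (0.43 ± 0.12) and the ligase HERC5 (0.36 ± 0.12), and the protease USP18 differed by 0.16 ± 0.09. Of 6 small membrane and mitochondrial proteins IFI6 was higher (0.36 ± 0.11). Of 5 other antiviral effectors RSAD2, the mitochondrial nucleotide kinase CMPK2 (0.38 ± 0.11) and MX2 (0.80 ± 0.28) were, and MX1 differed by 0.35 ± 0.34. Of 6 other induced genes IFI44 and IFI44L (0.84 ± 0.16) were. The motif GAAANNGAAA was found in the promoters of 8 of the 10 higher members with an entry, of 12 of 18 other tested members and of 5 of 10 untested ones.

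**Figure D3:**
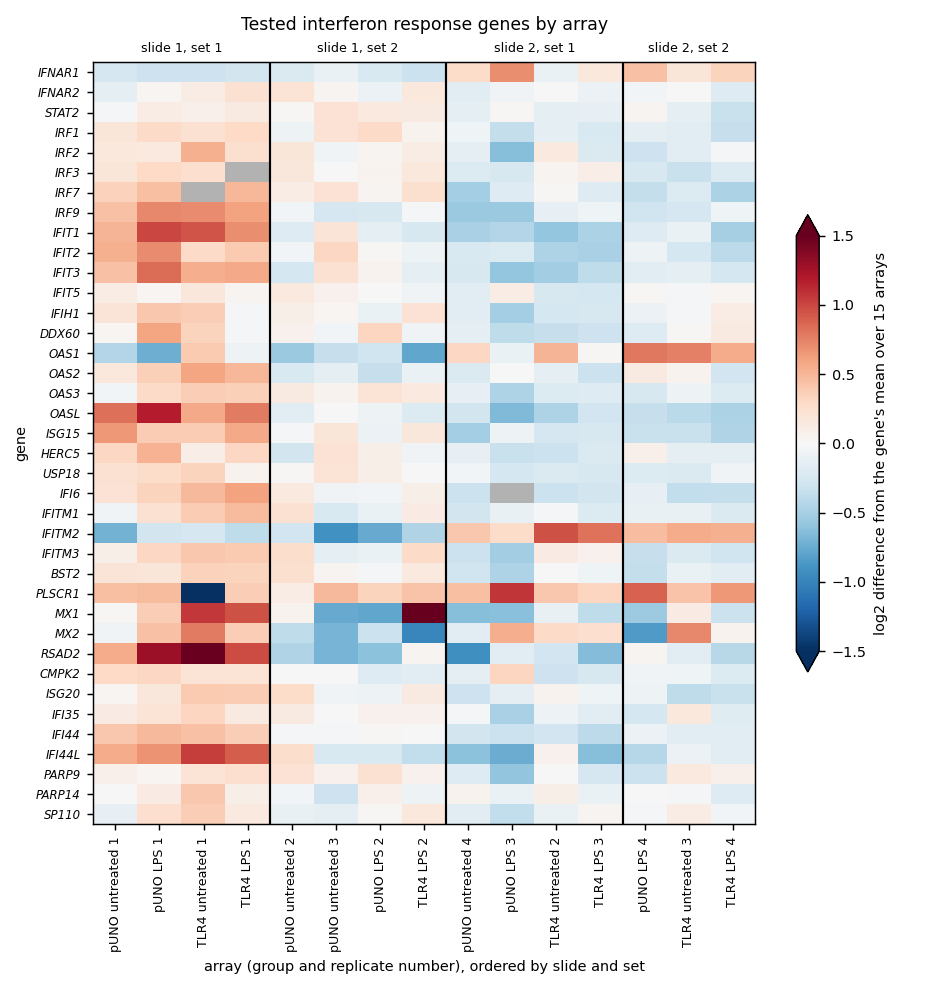
Log2 difference of each tested member (rows) from its mean over 15 arrays, blue for lower and red for higher, with arrays in columns by slide and set and grey for a spot left out as an outlier. The 4 columns of the first set are red in most rows, with 28 to 35 members above their mean, while IFITM2, OAS1 and IFNAR1 are higher on slide 2.

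The slides differed more widely than the sets. Between set 2 of slide 1 and slide 2, 19 of 38 members passed an adjusted p of 0.05, as did 40.8% of all probes. The counts were 12 (36.5%) with quantile normalization, 14 (37.0%) with normexp and 15 (37.7%) without the array labelled as replicate 2 of untreated SCC13-pUNO. IRF7 was 0.55 and OAS3 0.41 higher on slide 1. IFNAR1 fell by 0.58, OAS1 by 0.83 and IFITM2 by 1.05 on slide 1 (limma, adjusted p = 0.0030, 0.0058 and 0.00067). Between the sets of slide 2, 0 members and 0.0% of all probes were called, and the median of the members was -0.05.

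Of the pairs of members 51.8% correlated above 0.5 over the arrays, against 16.3% of pairs of sampled probes. The median Pearson correlation over 595 pairs of 35 members was 0.52 across the 15 arrays, 0.27 with group and slide means removed, and 0.06 with group and set means removed. For 1119 probes taken at regular steps it was 0.04, 0.01 and 0.01. The median of the members across arrays was 0.55 without the array labelled as replicate 2 of untreated SCC13-pUNO. IFNAR1 (-0.62), IFITM2 (-0.60), PLSCR1 (-0.50) and OAS1 (-0.32) correlated negatively with IFIT1. With group and slide means removed, the member closest to IFIT1 was IFIT2 (r = 0.95), followed by IFIT3 (0.94), OASL (0.90) and IFI44 (0.88). These are 4 of the 40 closest probes on the array, and the rest were no members. The points share slides and sets, and the values are a description.

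**Figure D4:**
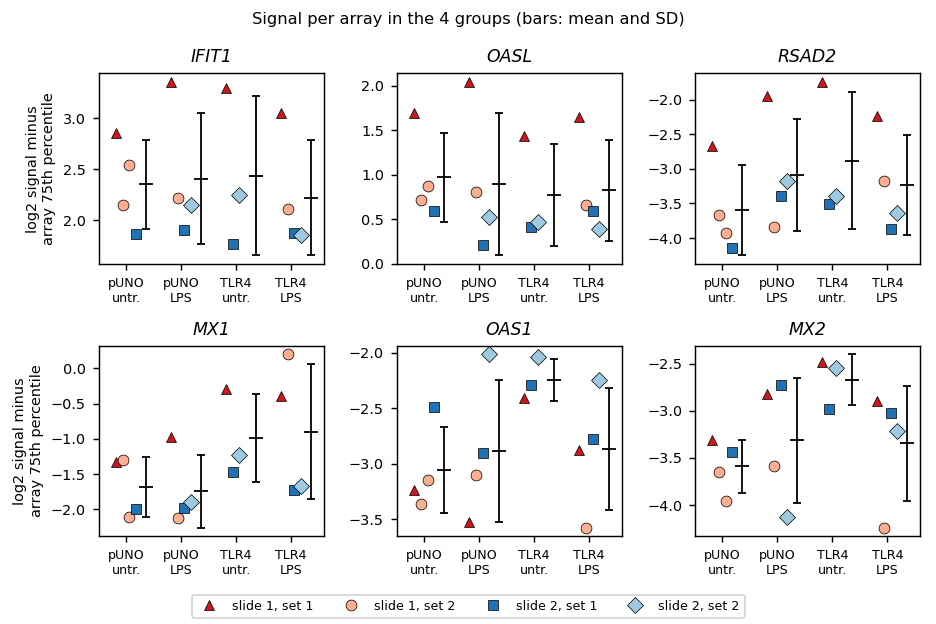
Level (log2 intensity minus the 75th percentile of the array) of 6 members on each array in the 4 groups, with symbols for slide and set and bars for the mean and SD. IFIT1, OASL and RSAD2 are highest on the array of set 1 of slide 1 in each of the 4 groups, and MX1, MX2 and OAS1 are so in fewer.

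Of 32 other genes of interferon production and signalling 22 were tested and 0 passed adjustment in any comparison of groups or between the sets of slide 1. Between these sets 3 of the 22 were higher at an unadjusted p under 0.05 and 0 lower (all probes 7.69% and 4.22%), among them the adaptor MAVS (0.22 ± 0.09) and the DNA sensor CGAS (0.23 ± 0.10), and the median of the list was -0.01. Of 22 other interferon-induced genes 18 were tested and 0 passed adjustment. Between the sets PML (0.36) and the death ligand TNFSF10 (0.26) were higher and ZC3HAV1 (-0.18) lower, with a median of 0.12. Among the cell type markers, CD68 was 0.32 higher in set 1 at an unadjusted p under 0.05. The keratinocyte marker KRT5 fell by 0.20 and the endothelial markers PECAM1 by 0.99 and CDH5 by 1.05 at the same threshold. The lists as a whole had medians of 0.02 (3 tested leukocyte markers), 0.01 (5 tested keratinocyte markers) and -0.99 (3 endothelial markers). Their part in the result was not tested.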

How the data were processed

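RNA of 15 cultures was hybridised to 1-colour Agilent SurePrint G3 arrays. The deposited intensity of each spot is the processed signal of Agilent Feature Extraction 10.7.3.1 (version per the file headers), not normalized between arrays. From it, log2 was taken and the array's 75th percentile subtracted. Spots marked as outliers were left out and spots of 1 probe averaged. Tested were the 22685 of 50599 probes that stood well above background throughout at least 1 group. Symbols came from matching accessions to RefSeq GRCh38.p14 (28174 probes, 20503 genes), and each gene was read from its brightest probe. Group means were compared in limma 3.58.1 (R 4.3.3), adjusting over all tested probes by Benjamini-Hochberg. Tables and figures used Python 3.11.15, numpy 2.4.6, pandas 2.3.3, scipy 1.17.1 and matplotlib 3.10.9. The fit was also run on simulated data with independent noise and no slide or set, so that run does not cover their effect. The number of arrays limits the precision.

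The members and lists were chosen with earlier results of these data known. Named by rule were IFNB1, IFNAR1, IFNAR2, STAT2, IRF9, ISG15, MX1, IFIT1, OAS1 and CXCL10, TLR4 as the check of the labels, and per comparison of groups up to 3 tested members with the largest difference and no overlap (MX2, OAS1 and SP110). Other genes were named after their values were seen. Slide and set come from the array barcode. Replicate numbers were checked for pairing by correlating deviations from group means. Between the lines with LPS all 4 same-numbered pairs correlated at 0.38 to 0.62, each within 1 set. Pairs of different numbers on the same slide correlated at 0.31 to 0.39, and pairs across slides at -0.61 to -0.30. The number marks the set in this comparison, so a pairing of cultures cannot be told apart from set and slide. Alternatives were normexp (offset 50) on median signals, since mean signals were not used here, quantile normalization, other filters, replicate, slide or set as a factor, array weights, only the groups compared, an absolute log2 fold change over 2, a mean over probes and each array left out. The uses of the set were chosen after seeing the data. For 1 gene of the signalling list the values are not reported here.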

Additional observations from a re-analysis of the deposited data

Results flagged for a closer look

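In groups of 4 arrays, an array was picked out when its distance to the nearest other array was large for the range of the group. Among 33 groups examined (the tested named genes and TLR4), 2 were picked out, where chance gives about 1 in 20, or 1.65. IRF9 read 0.12 on LPS-treated SCC13-TLR4 replicate 1, and the other arrays of that group were between -0.55 and -0.51. TLR4 read -4.74 on LPS-treated SCC13-pUNO replicate 4, with the other arrays between -6.26 and -6.09. IRF9 was also highest on the array of replicate 1 in the other 3 groups, which lies in the first set of slide 1.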

How the results depend on the processing

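No member was called in any comparison of groups under any alternative run. The medians of the members moved by less than the spread of array medians within groups (SD 0.24) in all 161 cases, from -0.16 to 0.21 in the comparisons of groups. This spread is wider than any of these medians and includes slide and set, so staying below it says little. Between the untreated lines the median was 0.20 with slide as a factor and 0.16 with the set block (all probes 0.03 and 0.02). Probes called were 0 in each comparison, but 11 and 22 (lines, untreated and with LPS) with slide as a factor without the array labelled as replicate 2 of untreated SCC13-pUNO, 12 and 17 with the set block without it, 12 with array weights (lines untreated), and 5 with only the groups compared (lines with LPS). Leaving out 1 array gave 0 to 7 and 0 to 10 between the lines, 0 to 1 and 0 to 3 for LPS in SCC13-pUNO and SCC13-TLR4 cells, and 0 to 2 for the difference of the responses. The highest between the lines came without the array labelled as replicate 2 of untreated SCC13-pUNO, and the highest for LPS in SCC13-TLR4 cells and for the difference of the responses without untreated SCC13-TLR4 replicate 3, which gave 3 between the untreated lines. For LPS in SCC13-pUNO cells the 1 call came without replicate 2 of LPS-treated SCC13-pUNO. Between the sets of slide 1, 23 probes and 3 members were called, 35 probes and 4 members with normexp (RSAD2, at 0.63, no longer among them), and 0 to 31 probes and 0 to 3 members with 1 array left out. The cause was not tested in any of these. The replicate block left 0 probes called in each comparison, with member medians of -0.03, 0.02, -0.01, 0.02 and 0.07. In the other 3 comparisons of groups the numbers did not follow the sets throughout. There 6 of 10 same-numbered pairs correlated over 0.1, and the lowest was at -0.40. The block changed no call. The 24 h time point, the background for 11 faint genes and 3 to 4 arrays per group limit what can be seen. Of 1156 values of named genes in the comparisons of groups under an alternative, 120 changed sign, all of results of at most 0.22. With normexp the sign changed between the untreated lines in IFNAR1 (-0.018), between the lines with LPS in OAS1 (-0.13), for LPS in SCC13-pUNO in MX1 (0.014) and for LPS in SCC13-TLR4 in IFNAR2 (0.029), STAT2 (-0.046), IRF9 (0.099) and SP110 (0.0026). With quantile normalization the sign changed between the untreated lines in IFNAR1 (-0.059), between the lines with LPS in OAS1 (-0.071), for LPS in SCC13-pUNO in IRF9 (-0.035) and for LPS in SCC13-TLR4 in IFNAR1 (-0.013). With the replicate block the sign changed between the untreated lines in IFIT1 (-0.041) and for LPS in SCC13-TLR4 in IFNAR1 (-0.062), IFNAR2 (0.030) and IRF9 (0.090). With slide as a factor the sign changed between the untreated lines in IFNAR1 (-0.24), STAT2 (0.0085) and ISG15 (0.12), for LPS in SCC13-pUNO in IFNAR2 (0.021), ISG15 (0.058) and MX1 (0.16) and for LPS in SCC13-TLR4 in STAT2 (-0.015), ISG15 (-0.023) and MX1 (-0.049). With slide as a factor without that array the sign changed between the untreated lines in IFNAR1 (-0.24) and ISG15 (0.040), for LPS in SCC13-pUNO in IFNAR2 (0.077), MX1 (0.21) and OAS1 (-0.041) and for LPS in SCC13-TLR4 in STAT2 (-0.016), ISG15 (-0.027) and MX1 (-0.046). With the set block the sign changed between the untreated lines in IFNAR1 (-0.25) and STAT2 (0.042), for LPS in SCC13-pUNO in IFNAR2 (0.032), ISG15 (0.013), MX1 (0.10) and OAS1 (-0.099) and for LPS in SCC13-TLR4 in STAT2 (-0.028) and IRF9 (0.022). With the set block without that array the sign changed between the untreated lines in IFNAR1 (-0.25) and STAT2 (0.023), for LPS in SCC13-pUNO in IFNAR2 (0.082), MX1 (0.20) and OAS1 (-0.14) and for LPS in SCC13-TLR4 in STAT2 (-0.034) and IRF9 (0.035). With array weights the sign changed between the untreated lines in IFNAR2 (-0.0079), IRF9 (-0.11) and IFIT1 (-0.36), between the lines with LPS in OAS1 (-0.029) and MX2 (0.088), for LPS in SCC13-pUNO in IRF9 (-0.033) and IFIT1 (-0.015) and for LPS in SCC13-TLR4 in IFNAR1 (-0.053), IFNAR2 (0.017), IRF9 (0.24), IFIT1 (0.13) and SP110 (0.050). With a mean over probes the sign changed for LPS in SCC13-pUNO in IFNAR2 (0.14). Between the untreated lines, leaving out 1 array gave IFNAR1 -0.13 to 0.12, ISG15 -0.36 to 0.054, IFIT1 -0.35 to 0.42 and IRF9 -0.081 to 0.40. Between the lines with LPS, leaving out 1 array gave IFIT1 -0.46 to 0.13, OAS1 -0.20 to 0.31, MX2 -0.30 to 0.27, IFNAR1 -0.33 to 0.0067, SP110 -0.0086 to 0.20, ISG15 -0.15 to 0.19 and IFNAR2 -0.00016 to 0.14. For LPS in SCC13-pUNO, leaving out 1 array gave ISG15 -0.29 to 0.097, MX1 -0.32 to 0.065, IFNAR2 -0.073 to 0.052, IFIT1 -0.26 to 0.22, IRF9 -0.26 to 0.20 and OAS1 -0.12 to 0.38. For LPS in SCC13-TLR4, leaving out 1 array gave IFNAR1 -0.070 to 0.18, IFNAR2 -0.077 to 0.061, IRF9 -0.18 to 0.30, IFIT1 -0.55 to 0.21, SP110 -0.16 to 0.074, STAT2 -0.039 to 0.12, ISG15 -0.11 to 0.30 and MX1 -0.27 to 0.45.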
